A study of Mus musculus with 11 samples.

Results

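Integrins, laminins and the proteins of focal adhesions join a cell to the matrix around it. The genes described here were chosen by name as integrin alpha and beta chains, laminin chains, 6 further matrix partners (Nid1, Nid2, Hspg2, Agrn, Fn1 and Dag1) and 9 focal adhesion genes (Tln1, Tln2, Vcl, Ilk, Ptk2, Pxn, Parva, Fermt2 and Zyx). The deposited table held 39 of them among its 13720 genes, as 10 integrin alpha chains, 6 integrin beta chains, 8 laminin chains, 6 matrix partners and 9 focal adhesion genes. The rule uses gene names only, but the genes were chosen with earlier results of these data known. An integrin is a pair of an alpha and a beta chain that spans the cell membrane, and the alpha chain largely sets which ligand is bound. Laminins are trimers of an alpha, a beta and a gamma chain that form the sheet of a basement membrane, such as the one between the limb ectoderm and the mesenchyme. On the inner side of the membrane talin and kindlin bind the beta chain, and vinculin, zyxin and the ILK complex link it to actin.

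RNA came from hindlimb (HL) buds of E10 mouse embryos, and each library held both HLs of 1 embryo. The 5 WT libraries were compared with 6 libraries of embryos lacking Meis1 and Meis2 (M1KO;M2KO, KO for single libraries). Libraries made with NuGen Ovation were WT S_252 (M1wtM2wt) and WT S_254 (M1hetM2wt, which has 1 mutant Meis1 allele), both female and of litter 1, and KO S_258, KO S_280 and KO S_284 (M1koM2ko), all male, of litters 1, 3 and 4, so that sex and genotype cannot be told apart in this set. Libraries made with NEBNext were WT 1, WT 3 and WT 4 and the HoxB6CreER;Meis1Ko;Meis2KO embryos KO 2, KO 3 and KO 4, for which sex and litter are not given in the sources used here. Embryos had 30 to 33 somites. By the study's methods, Meis2 was deleted conditionally and Meis1 either conditionally or in the whole embryo, with HoxB6CreER acting after 4-hydroxytamoxifen in the posterior lateral plate, which gives the HL mesenchyme. By immunofluorescence the paper reports the loss of all wild-type Meis protein where HoxB6CreER had acted. A KO library can still hold cells that kept the genes, such as cells from outside those regions. Which embryos had which Meis1 allele, and whether WT embryos had Cre, is not given in the sources used here.

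Values were CPM, the reads of a gene relative to all reads of its library, after the authors' scaling and batch correction. Meis1 ranged from 106 to 150 CPM over the WT libraries and from 110 to 158 CPM over the KO libraries, with a log2 fold change (FC) of 0.10 (limma adjusted p = 0.755). Meis2 ranged from 180 to 239 CPM over the WT libraries and from 176 to 285 CPM over the KO libraries, with a log2 FC of 0.07 (limma adjusted p = 0.864). The values cover the whole gene and not the deleted exon alone, so they do not check the labels. The summed level of 10 limb mesenchyme markers was 903 to 1208 CPM in the WT group and 1034 to 1297 CPM in the KO libraries. Prrx1 made up much of this sum (means of 421 and 583 CPM). Of the 10 markers, 5 had a log2 FC above 0 and 5 below. Only Msx1 passed, and it fell from 62.8 to 38.6 CPM (limma adjusted p = 0.00275), so the sum does not stand for each marker. Markers of ectoderm (314 to 409 and 259 to 438 CPM) and endothelium (313 to 413 and 313 to 414 CPM) were present in each library.

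Divided by exon length, Itgb1 had the highest level of the 39 genes, with 71.7 ± 8.59 CPM per kb in WT (SD, n = 5). Itgb1 encodes the beta chain that most integrins of embryonic mesenchyme share. Fn1 (27.3 ± 5.04 CPM per kb) and Fermt2 (26.1 ± 4.16 CPM per kb) came next in WT, and Ilk, Nid1 and Lamc1 followed with 21.6, 20.99 and 20.1 CPM per kb. Fn1 and Fermt2 lay within 1 SD of each other, Fermt2 lay above Ilk by more than either SD, and Ilk, Nid1 and Lamc1 lay within 1 SD of their neighbours. Among the alpha chains Itga6, which binds laminin, was highest per length in WT (11.1 ± 0.745 CPM per kb), followed by Itgav (8.17 ± 0.457), Itga5 (7.74 ± 1.52) and Itga9 (7.21 ± 0.853), and the last 3 lay within 1 SD of their neighbours. Among the laminin chains Lamc1 (20.1 ± 1.98 CPM per kb) and Lamb1 (12.0 ± 1.58 CPM per kb) were highest, which are the gamma and beta chains of most laminins. The lowest levels per length in WT were those of Lama2 (0.140 ± 0.0229 CPM per kb) and of Itgb4 (0.170 ± 0.0543 CPM per kb), the chain of hemidesmosomes, and their difference was smaller than the SD of Itgb4.

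**Figure D1:**
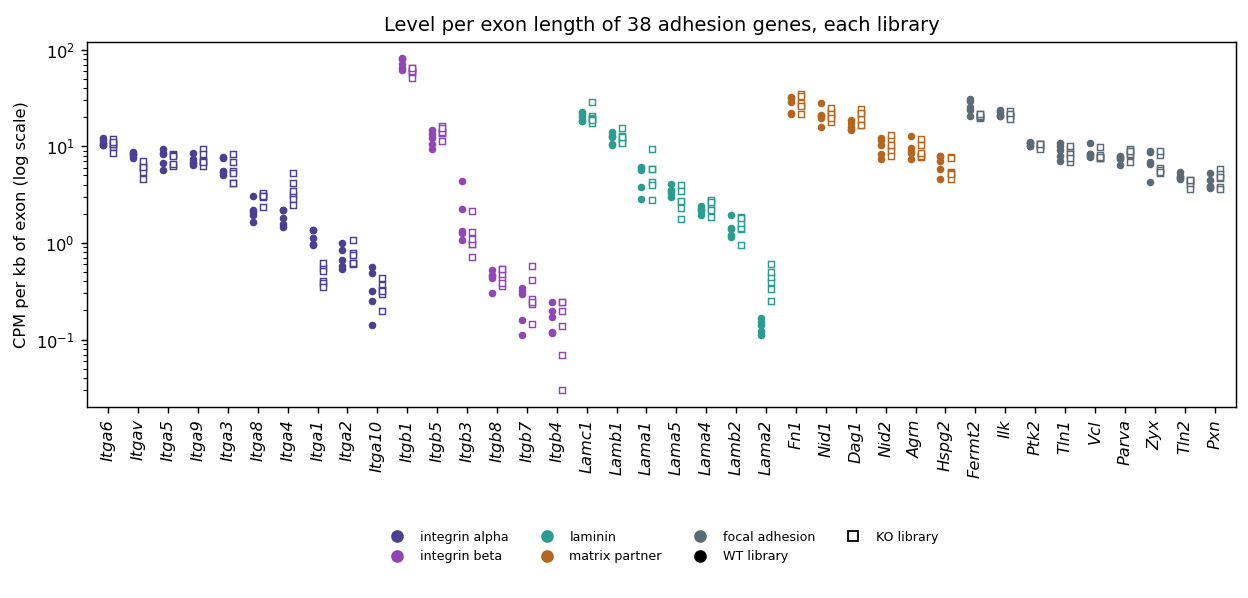
Levels of 38 of the 39 genes in CPM per kb of exon (vertical log axis), with 1 filled circle per WT library (n = 5) and 1 open square per KO library (n = 6), coloured by class and ordered within a class by the WT mean. Itgb1 stands above the other genes at 71.7 CPM per kb in WT, and the open squares of Lama2 and Itga4 lie above, and those of Itga1 and Itgav below, all filled circles of the same gene.

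The comparison of KO with WT asked which of these genes differ when Meis1 and Meis2 are lost. At least 1 CPM in 4 or more libraries was required, and 38 of the 39 genes passed. The remaining gene was Itgb7, a chain of lymphocyte integrins, at 0.307 to 0.938 CPM in the WT group and 0.401 to 1.61 CPM in the KO libraries. Of the 38 genes, 4 changed at a limma adjusted p under 0.05, beside 2.09% of all 12996 genes tested. Itga4 and Lama2 rose (2 genes, while 1.04% of all genes rose), and Itga1 and Itgav fell (2 genes, while 1.05% of all genes fell). By class, 3 of 10 integrin alpha chains and 1 of 8 laminin chains changed, and none of 5 beta chains, 6 matrix partners or 9 focal adhesion genes did at the adjusted threshold in limma. At an unadjusted p under 0.05, 9 of the 38 genes passed, beside 14.7% of all genes, namely the 4 above, Itga8, Itgb1, Dag1, Tln2 and Fermt2. The median log2 FC of the 38 genes was −0.02, beside 0.00 for all genes, and the median of its absolute size was 0.09, beside 0.13. In bulk tissue, fewer cells of a type and less RNA per cell cannot be told apart.

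**Figure D2:**
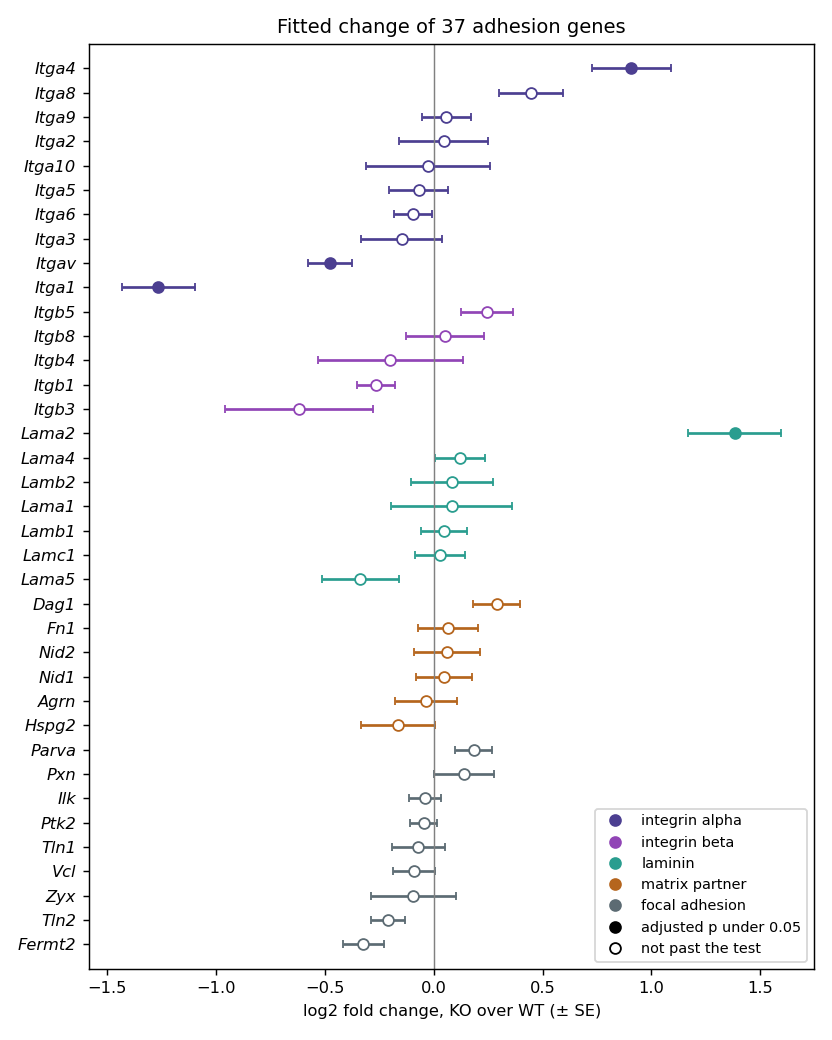
Fitted log2 FC of KO over WT (horizontal axis, 5 WT and 6 KO libraries) with its standard error for 37 of the 38 genes tested, grouped and coloured by class. The 4 genes at an adjusted p under 0.05 lie at 1.38 (Lama2), 0.91 (Itga4), −0.48 (Itgav) and −1.26 (Itga1), and the other 33 shown lie between −0.62 (Itgb3) and 0.45 (Itga8).

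Itga1 encodes the alpha chain of a collagen receptor that pairs with the Itgb1 product and binds type IV collagen of basement membranes. Its level was 25.6 CPM in WT S_252, 18.0 in WT S_254, 25.1 in WT 1, 17.6 in WT 3 and 20.8 in WT 4. In the mutants it was 7.58 CPM in library KO S_258, 10.2 in KO S_280, 9.49 in KO S_284, 7.20 in KO 2, 6.45 in KO 3 and 11.6 in KO 4. Every KO library lay below every WT library, in both library sets. Its mean fell from 21.4 ± 3.78 CPM (SD, n = 5) to 8.76 ± 2.004 CPM (SD, n = 6), 2.40-fold lower on the log2(CPM + 0.5) scale (log2 FC −1.26, SE 0.168, limma adjusted p = 0.00373). Within the Ovation libraries the log2 FC was −1.21 (limma adjusted p = 0.0455), and within the NEBNext libraries −1.31 (limma adjusted p = 0.0883). Leaving out any 1 library kept the adjusted p at or below 0.0178. The other collagen-binding chains measured here, Itga2 (5.17 ± 1.38 CPM in the WT group and 5.31 ± 1.27 CPM in the KO group) and Itga10 (1.83 ± 0.898 and 1.68 ± 0.403 CPM), overlapped between the groups (limma adjusted p = 0.960 and 0.986). As a share of the per-length level of all 10 alpha chains, Itga1 took 2.48% ± 0.49 in WT and 1.05% ± 0.235 in KO libraries.

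Itgav encodes the alpha chain of the vitronectin-type receptors, which bind the RGD sequence of fibronectin and vitronectin and hold latent TGFβ. WT libraries had 89.7, 93.2, 90.3, 80.9 and 84.6 CPM (WT S_252, WT S_254, WT 1, WT 3 and WT 4). KO libraries had 64.2, 69.0, 57.7, 65.3, 49.4 and 76.4 CPM (KO S_258, KO S_280, KO S_284, KO 2, KO 3 and KO 4). The highest KO library, KO 4, lay below the lowest WT library, WT 3. Itgav fell from 87.7 ± 4.91 to 63.7 ± 9.29 CPM, 1.39-fold lower on the log2(CPM + 0.5) scale (log2 FC −0.48, SE 0.0993, limma adjusted p = 0.0250). The decrease was close to the threshold, and leaving out WT S_252, WT S_254, WT 1, KO S_284 or KO 2 gave an adjusted p of 0.0768, 0.0850, 0.0612, 0.0578 or 0.0620 in turn. It was 0.0731 without a trend in the variance and 0.102 when only litter 1 was used from the Ovation libraries. The 2 sets gave log2 FC of −0.52 (Ovation, adjusted p = 0.0672) and −0.44 (NEBNext, adjusted p = 0.291).

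Itga4 encodes the alpha chain that binds VCAM1 and fibronectin with the Itgb1 or the Itgb7 product. It measured 25.5, 30.6, 31.0, 20.3 and 22.1 CPM in WT (same order of libraries) and 43.9, 39.8, 47.8, 74.4, 58.7 and 34.2 CPM in the KO group. The groups did not overlap, and the widest spread was among the NEBNext KO libraries, where KO 2 was highest and KO 4 lowest of all KO libraries. Its mean rose from 25.9 ± 4.83 to 49.8 ± 14.6 CPM, 1.88-fold higher on the log2(CPM + 0.5) scale (log2 FC 0.91, SE 0.183, limma adjusted p = 0.0217). Without WT S_252 the adjusted p was 0.0655, and in the other fits that left out 1 library Itga4 stayed under 0.05. It was 0.0612 without a trend in the variance and 0.0670 with the Ovation libraries limited to litter 1. The log2 FC was 0.64 for Ovation (adjusted p = 0.0698) and 1.13 for NEBNext libraries (adjusted p = 0.153), and this difference did not pass the test between sets. Itga9, whose chain binds VCAM1 and tenascin, measured 55.4 ± 6.56 CPM in the WT group and 57.9 ± 9.05 CPM in the KO group (log2 FC 0.06, limma adjusted p = 0.878).

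Lama2 encodes the laminin alpha chain of muscle and nerve basement membranes, whose loss gives a congenital muscular dystrophy. Its level was low throughout, at 2.50, 1.83, 2.34, 2.75 and 1.99 CPM in the WT group and 6.50, 5.50, 7.21, 9.98, 8.09 and 4.07 CPM in the KO libraries. No KO library came down to the WT range. Lama2 rose from 2.28 ± 0.374 to 6.89 ± 2.06 CPM, 2.61-fold on the log2(CPM + 0.5) scale (log2 FC 1.38, SE 0.216, limma adjusted p = 0.00593), with log2 FC of 1.38 and 1.39 in the Ovation and NEBNext sets (adjusted p = 0.0620 and 0.157). The adjusted p stayed at or below 0.0266 with any 1 library left out. Per length, Lama2 took 1.33% ± 0.312 of the 4 laminin alpha chains in WT and 4.03% ± 1.58 in KO. Lama1, Lama5 and Lama4 took 44.8%, 32.7% and 21.1% in WT and 47.1%, 25.6% and 23.3% in KO. Lama2 therefore remained the smallest of the 4 alpha chains per length in both groups.

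Muscle precursors enter the limb bud at this stage and are among the other cells of the sample. The sum of 6 measured markers of 7 listed for them ranged from 54.4 to 85.6 CPM over the WT libraries and from 72.6 to 129 CPM over the KO libraries, with overlap and none at 0. The part of such cells in the Lama2 and Itga4 values was not tested.

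**Figure D3:**
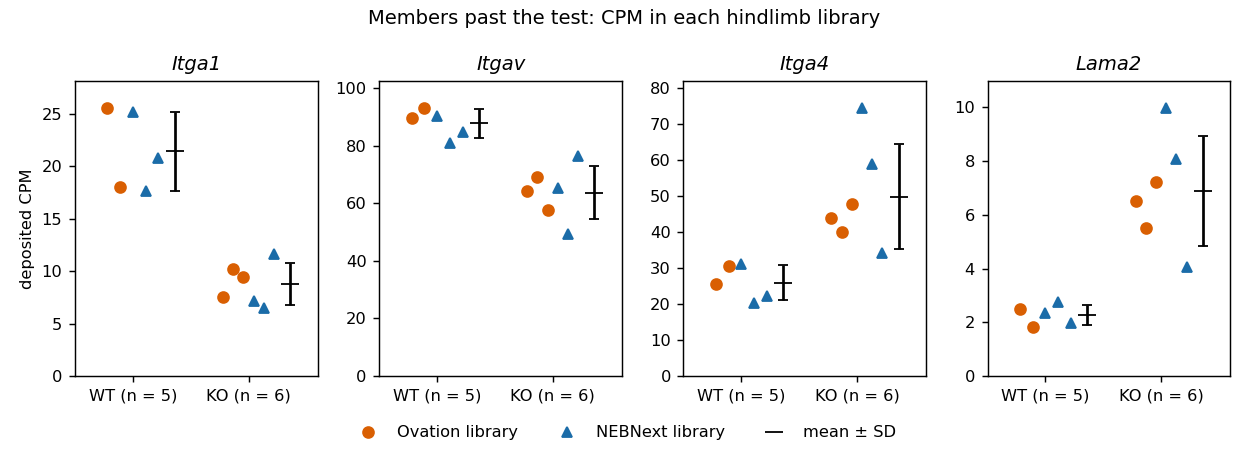
CPM of Itga1, Itgav, Itga4 and Lama2 in each library (vertical axis, linear and from 0), with circles for the Ovation and triangles for the NEBNext set and a bar for each group mean with its SD (5 WT and 6 KO libraries). In each panel the WT and KO points occupy separate ranges, such as 17.6 to 25.6 CPM and 6.45 to 11.6 CPM for Itga1.

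The reference positions of these 4 genes on GRCm38 (GENCODE M21, without any measure of these embryos) are chromosome 13, 114953096 to 115101964, minus strand for Itga1, chromosome 2, 83724397 to 83806916, plus strand for Itgav, chromosome 2, 79255426 to 79333123, plus strand for Itga4, and chromosome 10, 26980036 to 27619758, minus strand for Lama2. Their promoter windows, 250 bases before to 50 bases after the RefSeq start (GRCm38.p6), are shown because Meis proteins bind the hexamer TGACAG and the 4 genes are those that changed. They lie at chr13:115101915-115102214 (minus strand), chr2:83724147-83724446 (plus strand), chr2:79255176-79255475 (plus strand) and chr10:27616893-27617192 (minus strand). Each is written 5′ to 3′, with the hexamer, on either strand, in capitals.
Itga1: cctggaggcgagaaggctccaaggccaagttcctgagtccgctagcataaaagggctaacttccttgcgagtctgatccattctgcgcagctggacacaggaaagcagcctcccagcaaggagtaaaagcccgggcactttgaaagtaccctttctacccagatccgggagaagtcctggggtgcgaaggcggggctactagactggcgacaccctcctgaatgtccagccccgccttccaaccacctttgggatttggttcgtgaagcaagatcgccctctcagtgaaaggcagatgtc
Itgav: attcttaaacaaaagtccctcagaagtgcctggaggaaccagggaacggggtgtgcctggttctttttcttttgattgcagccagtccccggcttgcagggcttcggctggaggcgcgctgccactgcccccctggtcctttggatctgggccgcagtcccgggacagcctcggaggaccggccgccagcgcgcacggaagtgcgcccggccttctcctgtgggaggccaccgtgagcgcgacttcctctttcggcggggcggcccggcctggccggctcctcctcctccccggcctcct
Itga4: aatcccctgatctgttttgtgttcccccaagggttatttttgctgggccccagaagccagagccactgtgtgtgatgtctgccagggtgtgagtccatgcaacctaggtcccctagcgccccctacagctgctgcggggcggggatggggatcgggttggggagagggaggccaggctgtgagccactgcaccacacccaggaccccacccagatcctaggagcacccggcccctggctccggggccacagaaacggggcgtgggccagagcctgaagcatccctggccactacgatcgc
Lama2: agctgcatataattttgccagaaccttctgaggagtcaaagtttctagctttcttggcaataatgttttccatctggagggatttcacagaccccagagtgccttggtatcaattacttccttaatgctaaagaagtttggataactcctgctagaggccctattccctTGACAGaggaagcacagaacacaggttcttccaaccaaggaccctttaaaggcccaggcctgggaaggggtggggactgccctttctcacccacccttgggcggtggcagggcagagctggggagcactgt
Lama2 held 1 copy of the hexamer, which began 81 bases before the start, and the windows of Itga1, Itgav and Itga4 held none. The RefSeq start of Lama2 lies inside the span that GENCODE gives to the gene. Of 39 genes, 26 had a RefSeq window, with 30 windows in all, and TGACAG was found in 6 of these 30 windows, which belong to Itga8, Itgb5, Lama2, Dag1 and Tln1. The share over 32851 RefSeq promoters was 19.2%, and 16.4% over the 12977 windows of genes in the table. The count among the 30 windows was close to these shares, and a match is only a match of letters.

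Among the remaining alpha chains, Itga8 came nearest to the threshold. Its product binds nephronectin with the Itgb1 chain. WT libraries had 15.5, 16.2, 12.1, 14.4 and 22.7 CPM and KO libraries 17.3 to 24.0 CPM with a median of 22.3. WT 4 lay within the KO range and the other WT libraries below it. The log2 FC was 0.45 (SE 0.147, limma adjusted p = 0.154), and 0.57 with an adjusted p of 0.0359 without WT 4. In the other 10 fits that left out 1 library Itga8 did not pass, with an adjusted p of up to 0.280. The 2 laminin-binding chains did not pass, and Itga6, the highest alpha chain per length, measured 94.0, 97.6, 105, 93.7 and 109 CPM in the WT group and 77.1 to 107 CPM in the KO group with a median of 94.8 (log2 FC −0.10, limma adjusted p = 0.682). Itga3 had 35.7 ± 7.504 CPM in the WT group and 32.7 ± 9.27 CPM in the KO group (adjusted p = 0.802), and the fibronectin receptor chain Itga5 had 38.2 ± 7.49 and 35.96 ± 4.79 CPM (adjusted p = 0.882).

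None of the 5 beta chains tested passed. Itgb1 measured 327, 254.4, 331, 287 and 265 CPM in the WT group and 209 to 266 CPM in the KO group with a median of 244. WT S_254 and WT 4 lay within the KO range. Its log2 FC was −0.26 (SE 0.0886, unadjusted p = 0.0102, limma adjusted p = 0.164). Itgb3, the chain that platelets use with the Itga2b product, had 6.29, 13.1, 26.0, 7.40 and 7.86 CPM in the WT group and 4.26 to 12.6 CPM in the KO group with a median of 6.13. WT 1 stood above all other libraries, followed by WT S_254 and KO S_258, and the log2 FC of −0.62 did not pass (SE 0.341, limma adjusted p = 0.436). The sum of 5 measured platelet markers of 8 listed ranged from 8.87 to 39.8 CPM over the WT libraries and from 4.03 to 7.53 CPM over the KO libraries, with none at 0 and the highest values in WT 1 (39.8 CPM) and WT S_254 (33.7 CPM), and their part in the Itgb3 value was not tested. Itgb5, an αv partner, had 42.8 ± 7.35 CPM in the WT group and 50.3 ± 5.89 CPM in the KO group (log2 FC 0.24, limma adjusted p = 0.372). The lower levels of Itgb8 (4.84 ± 0.902 and 5.04 ± 0.848 CPM) and Itgb4 (1.19 ± 0.381 and 1.08 ± 0.631 CPM) overlapped between the groups.

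Apart from Lama2, no laminin chain passed. Lamc1, the highest per length, measured 150, 150, 167, 179 and 186 CPM in the WT group and 145 to 236 CPM in the KO group with a median of 159. KO S_258 stood above every other library and the remaining KO libraries lay within or just below the WT range (log2 FC 0.03, limma adjusted p = 0.956). Lama5, the laminin alpha chain of embryonic epithelia, had 39.4 ± 4.69 CPM in the WT group and 32.1 ± 9.25 CPM in the KO group (log2 FC −0.34, limma adjusted p = 0.408). Lama4, a chain of vessel walls, had 26.5 ± 2.25 and 29.0 ± 4.27 CPM (log2 FC 0.12, adjusted p = 0.701). Lama1, the alpha chain of the early embryo, had the widest spread of these chains, with 27.7 to 59.3 CPM in the WT group and 26.6 to 91.3 CPM in the KO group. Lamb1 took 89.5% ± 1.43 of the beta chains per length in WT and 89.1% in KO, and Lamb2 had a log2 FC of 0.08.

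The matrix partners did not pass as single genes. Dag1 encodes dystroglycan, a laminin receptor outside the integrins. It measured 93.6, 96.3, 101, 110 and 118 CPM in the WT group and 106 to 156 CPM in the KO group with a median of 129. WT 3 and WT 4 lay within the KO range, and the log2 FC was 0.29 (SE 0.108, unadjusted p = 0.0186, limma adjusted p = 0.219). Fn1, fibronectin, the highest of this class per length, had 253, 259, 366, 339 and 377 CPM in the WT group and 250 to 407 CPM in the KO group with a median of 319 (log2 FC 0.07, limma adjusted p = 0.892). The nidogens Nid1 and Nid2, which bridge laminin and collagen networks, and the heparan sulfate proteoglycans Hspg2 (perlecan) and Agrn (agrin) had log2 FC between −0.17 (Hspg2) and 0.06 (Nid2).

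Of the 9 focal adhesion genes 7 had a log2 FC below 0, beside 6477 of all 12996 genes tested. The direction depended on the library set, with 3 of the 9 below 0 in the Ovation set alone and 8 in the NEBNext set alone. None passed the adjusted threshold in limma, beside 2.09% of all genes, while 2 did at an unadjusted p under 0.05, beside 14.7%. Fermt2, kindlin-2, which activates integrins from the inside and was highest of this class per length, measured 151, 132, 162, 108 and 125 CPM in the WT group and 101 to 113 CPM in the KO group with a median of 107. WT 3 lay within the KO range and the other WT libraries above it. Its log2 FC was −0.32 (SE 0.0948, limma adjusted p = 0.106), and −0.40 with an adjusted p of 0.0286 without WT 3. In the other 10 fits that left out 1 library Fermt2 did not pass, with an adjusted p of up to 0.272. Tln2, a talin, measured 90.03, 88.5, 84.0, 100.1 and 86.7 CPM in the WT group and 67.1 to 82.9 CPM in the KO group with a median of 80.6. These groups did not overlap, but the difference was small (log2 FC −0.21, SE 0.0766, unadjusted p = 0.016, limma adjusted p = 0.205). Together with the 4 changed genes, 5 of 38 genes had groups that did not overlap, beside 3.49% of all genes (2 higher in KO, beside 1.82%, and 3 lower, beside 1.67%). Ptk2 (focal adhesion kinase, log2 FC −0.05), Ilk (−0.04) and Vcl (−0.09) lay close to 0, and Parva, a partner of ILK, and Pxn, paxillin, had values of 0.18 and 0.14 (limma adjusted p = 0.351 and 0.713).

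Further genes of the same machinery were examined in lists. Of 17 tested integrin ligands, 3 rose and 1 fell in limma, beside 1.04% and 1.05% of all genes, and the median log2 FC was 0.16, beside 0.00. In the Ovation set alone the ligand median was 0.60 (14 of 17 above 0), beside 0.01 for all genes. In the NEBNext set alone it was 0.03 (9 of 17 above 0), beside −0.01. Fbln5, fibulin-5 of elastic fibres, rose from 4.47 ± 1.28 to 12.0 ± 3.60 CPM (2.53-fold, limma adjusted p = 0.00864), and did not pass within the Ovation (adjusted p = 0.0903) or the NEBNext libraries (adjusted p = 0.124) alone. Npnt, nephronectin, the ligand of the Itga8 chain, rose from 25.6 ± 5.85 to 46.1 ± 7.17 CPM (1.81-fold, limma adjusted p = 0.011), and did not pass within the NEBNext libraries alone (adjusted p = 0.214) or with the Ovation libraries limited to litter 1 (adjusted p = 0.0670). Spp1, osteopontin, rose from a mean of 0.284 to 2.02 CPM (3.05-fold with the pseudocount, limma adjusted p = 0.0191), a change among very low values. No WT library lay above 0.414 CPM, so Spp1 passed the filter of 1 CPM in 4 libraries through KO libraries alone. Its rise is therefore a description and adds no support to the count of ligands. Spp1 did not pass without WT S_254 (adjusted p = 0.0660) or KO 2 (adjusted p = 0.0636), nor within the Ovation (0.0978) or NEBNext libraries (0.245) alone. Thbs1, thrombospondin-1, fell from 38.1 ± 15.6 to 18.6 ± 4.99 CPM (1.97-fold lower, limma adjusted p = 0.0411), and this decrease was lost in 7 of the 11 fits that left out 1 library (WT S_252, WT S_254, WT 1, KO S_280, KO S_284, KO 2 or KO 3), with an adjusted p of 0.0554 to 0.127. Thrombospondin-1 is also a platelet protein, the platelet marker sums above did not overlap between the groups, and their part in the Thbs1 value was not tested.

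None of 18 tested basement membrane genes changed, beside 2.09% of all genes, and Hmcn1 came nearest (log2 FC 0.54, limma adjusted p = 0.0753). None of 21 tested genes of the dystroglycan complex changed, where Dtna came nearest (log2 FC 0.85, limma adjusted p = 0.0631). With a share of 2.09%, a count of 0 in lists this short does not set them apart from all genes. Of the integrin genes that the naming rule leaves out 2 were tested, and Itga2b measured 4.11 CPM in the WT group and 1.77 CPM in the KO group (limma adjusted p = 0.397).

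The genotype effect was also measured within each library set. In the Ovation set the median log2 FC of the 38 genes was 0.25, beside 0.01 for all genes, and in the NEBNext set it was −0.20, beside −0.01. A log2 FC above 0 in the Ovation set and below 0 in the NEBNext set was found for 20 of the 38 genes, beside 25.4% of all genes. All 6 matrix partners were above 0 in the Ovation set (median 0.43) and 5 of the 6 were below 0 in the NEBNext set (median −0.31). The test of this difference passed for none of the 38 genes at the adjusted threshold in limma (0.0% of all genes passed), with the lowest adjusted p at 0.0757 for Itga5. At an unadjusted p under 0.05, 10 of the 38 genes differed, all lower in the NEBNext set, beside 7.41% of all genes. These were the laminin chains Lama1 (difference −1.45 on the log2 scale) and Lamb1 (−0.54), the matrix genes Hspg2 (−1.01), Nid2 (−0.87), Fn1 (−0.82), Agrn (−0.62) and Nid1 (−0.56), the integrin chain Itga5 (−0.84) and the focal adhesion genes Zyx (−1.09) and Tln1 (−0.69).

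**Figure D4:**
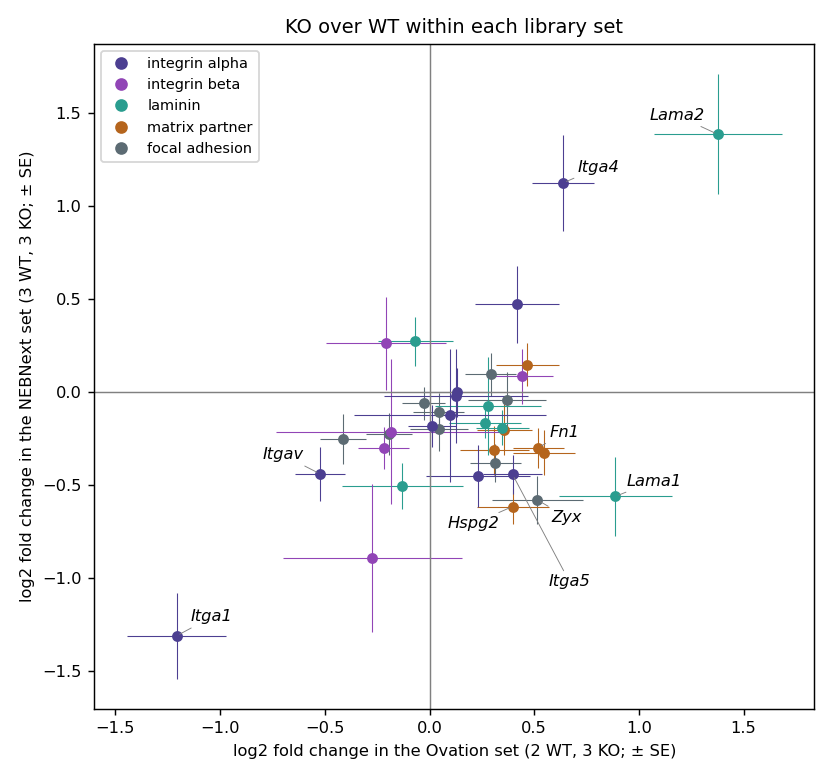
Log2 FC of KO over WT with its standard error in the Ovation set (horizontal axis, 2 WT and 3 KO libraries) and in the NEBNext set (vertical axis, 3 WT and 3 KO libraries) for 37 of the 38 genes tested, coloured by class. Itga1 lies at −1.21 and −1.31 and Lama2 at 1.38 and 1.39, while 19 of the genes shown lie in the lower right field, above 0 in the Ovation set and below 0 in the NEBNext set.

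For Itga5, Fn1 and Tln1 the KO libraries lay above both WT libraries in the Ovation set and below all WT libraries in the NEBNext set, 3 of 38 genes beside 1.75% of all genes. Fn1 shows the pattern, with 253 and 259 CPM in the WT group and 407, 312 and 391 CPM in the KO group of the Ovation set. In the NEBNext set it had 366, 339 and 377 CPM in the WT group and 326, 250 and 308 CPM in the KO group. In 5 genes the groups did not overlap within either set and differed in the same direction in both, beside 4.49% of all genes, namely Itga1, Itgav and Tln2 (lower) and Itga4 and Lama2 (higher). These are the same 5 genes whose groups did not overlap over all 11 libraries, which fixes this outcome in advance. With each set fitted alone, 1 of the 38 genes passed in the Ovation set (Itga1, which fell, beside 1.15% of all genes, with 0.608% higher and 0.546% lower) and 0 in the NEBNext set (beside 0.0231% of all genes), where 17 of the 38 genes passed in limma at an unadjusted p under 0.05, beside 12.0% of all genes. The number at an unadjusted p under 0.05 was also 17 in the Ovation set, beside 17.1% of all genes, but the directions were opposite. In the Ovation set 14 were higher and 3 lower in KO, beside 1171 and 1055 of all genes. In the NEBNext set 3 were higher and 14 lower, beside 675 and 887. The sets differ in kit and batch, which cannot be told apart, and whether they differ in sex or litter is not known.

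Single libraries were at the extremes of many of these genes. WT S_252 was the lowest of the 11 libraries for 9 of the 38 genes and KO 3 for 8, while KO S_258 was the highest for 9 and WT 1 for 7. The median of the 38 genes relative to their own mean was −0.18 on the log2 scale in WT S_252, −0.17 in KO 3 and 0.21 in KO S_258. WT S_252 is also the library whose removal lost both Itga4 and Itgav, after which 2 of the 38 genes (Itga1 and Lama2) passed. Among the KO libraries, KO 4 lay nearest to the WT range for each of the 4 changed genes, and without it their log2 FC were −1.38 (Itga1), −0.55 (Itgav), 1.04 (Itga4) and 1.56 (Lama2).

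**Figure D5:**
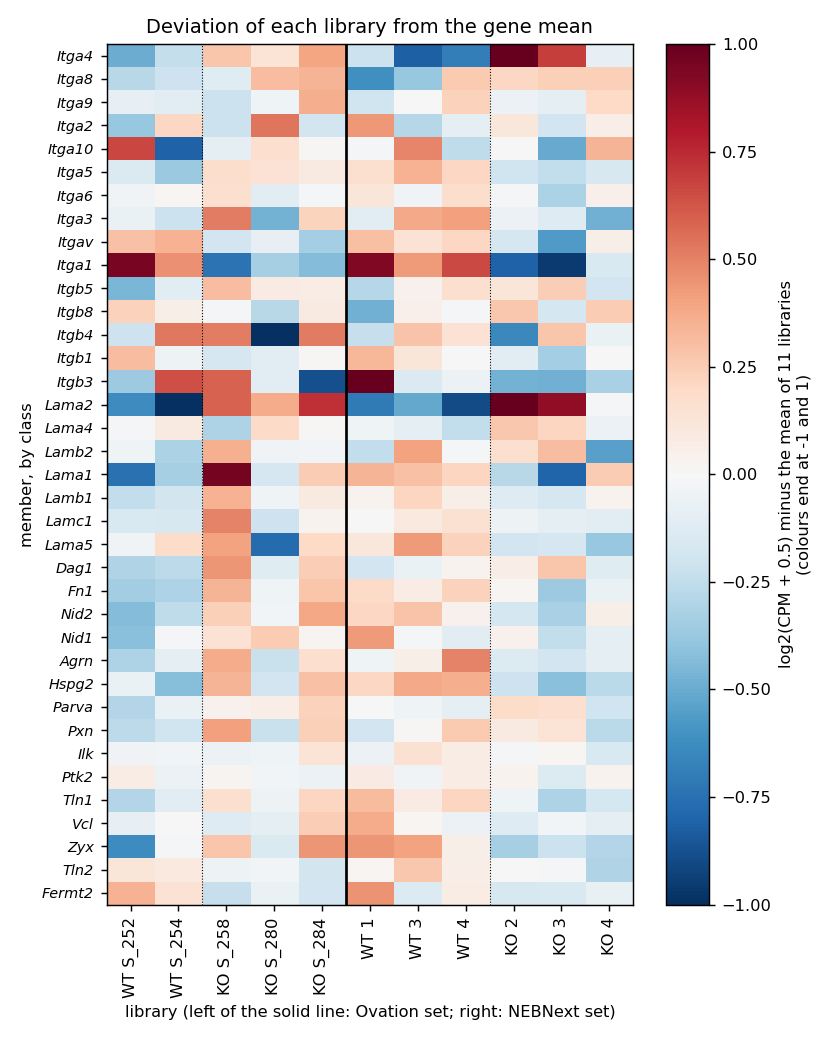
Log2(CPM + 0.5) of 37 of the 38 genes tested (rows, by class) minus the gene's mean over the 11 libraries, shown as colour for each library (columns, by set and group). Itga1 lies below its mean in all 6 KO columns, Itga4 and Lama2 are highest in KO 2, and over all 38 genes WT S_252 is the lowest library for 9 and KO S_258 the highest for 9.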

How the data were processed

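RNA-seq libraries of HL buds from 5 WT and 6 M1KO;M2KO embryos were analysed, grouped by the sample labels. Per the labels, the Ovation reads were processed with CASAVA 1.8.2, cutadapt 1.3 and RSEM 1.2.3 on GRCm38, and the NEBNext reads with bcl2fastq, cutadapt and RSEM without versions. The authors applied TMM and ComBat and deposited CPM on a linear scale for 13720 genes. Whether ComBat was given the genotypes and whether counting used strand is not stated. CPM summed to 754534 to 805762 per library (75.5% to 80.6% of a full CPM total), no value was 0, and read depth is unknown, so no counting interval is given. Batch-corrected values can understate the residual spread.

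Log2(CPM + 0.5) was modelled with limma 3.58.1 under R 4.3.3. Terms were genotype and library set, with a variance trend, and 8 residual degrees of freedom were left. A gene had to reach 1 CPM in 4 or more libraries (12996 kept, 724 removed). Tests were two-sided with Benjamini-Hochberg adjustment over all genes tested, at 0.05. Fold changes include the pseudocount and understate changes of low genes. Fits within each set, and an interaction of genotype and set, were added. P-values set the group difference against the spread between these embryos, with variances moderated over all genes. They cannot separate genotype from sex in the Ovation set.

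The genes and lists were chosen with earlier results of these data known, so their counts are descriptions. All members were described, with values by library for each that passed at 0.05 (adjusted or not), had groups that did not overlap, or had the highest level per length or largest change in its class. From the other lists the genes that changed were named, except that a few items are not reported here in text or plots, and Hmcn1, Dtna and Itga2b were added after their values were seen. The basement membrane list also held Usp9x, a deubiquitinase. Exon lengths and positions came from GENCODE M21, which matched 99.9% of identifiers, and length is the union of annotated exons, so levels per kb are approximate. Promoters came from RefSeq GRCm38.p6. Exons of Itga1 (Gm49395), Itgav (Gm13684), Itga4 (Cerkl), Lama2 (Gm48084), Ilk (Taf10), Vcl (Ap3m1), Itga10 (Gm42957), Nid2 (Rtraf), Zyx (Epha1) and Tln1 (Creb3) overlap those of the gene in parentheses, so reads shared by both could be split either way. Alternatives were other pseudocounts, filters, scalings, variance settings, each set or litter 1 alone, no set term, a replicate block and leaving out each library. Python 3.11.15, pandas 2.3.3, numpy 2.4.6 and matplotlib 3.10.9 made the tables and plots.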

Additional observations from a re-analysis of the deposited data

Results flagged for a closer look

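In 4 of 78 groups of libraries (38 genes and Itgb7, WT and KO) 1 library lay far from the rest by Dixon's test, where chance alone gives about 1 in 20. Itga8 in KO S_258 was the lowest KO value at 17.3 CPM, with the next at 21.9 CPM. Lamc1 in KO S_258 was the highest KO value at 236 CPM, with the next at 172 CPM. Vcl was highest in WT 1 among WT libraries at 87.6 CPM, with the next at 68.8 CPM. Vcl was also highest in KO S_284 among KO libraries at 80.3 CPM, with the next at 66.3 CPM.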

How the results depend on the processing

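No log2 FC of the 38 genes or of the 5 list genes that changed reversed while called, in 24 alternatives. The 4 changed genes (2 higher, 2 lower, 3 of them alpha chains) became 2 without a variance trend, where Itga4 and Itgav were lost (1 higher, 1 lower, 1 alpha chain), 1 in the Ovation set alone (0 higher, 1 lower, 1 alpha chain), 0 in the NEBNext set alone (0 higher, 0 lower, 0 alpha chains) and 2 when the Ovation libraries were limited to litter 1, where the same pair was lost (1 higher, 1 lower, 1 alpha chain). The laminin count of 1 became 0 in the Ovation and 0 in the NEBNext set alone. Leaving out 1 library gave 2 to 5 genes (1 to 3 higher, 1 to 3 lower), 1 to 4 alpha chains and 0 to 1 focal adhesion genes. The median log2 FC of −0.02 was 0.25 in the Ovation set alone, and between −0.08 and 0.04 without 1 library. The 272 changed genes of the whole table became 150 in the Ovation set, 3 in the NEBNext set, 102 with litter 1 alone and 106 to 337 without 1 library. Title numbers are shared by WT and KO 3 and 4 of the NEBNext set, whose deviations correlated at 0.20 and −0.04 over 12996 genes. KO 3 and KO 4 correlated at −0.16 to 0.14 with WT libraries of another number. With so few libraries these values cannot decide whether the numbers pair the samples. With a replicate block 3 genes changed (2 higher, 1 lower), Itgav being lost at an adjusted p of 0.0653, as were Npnt (0.0800), Fbln5 (0.0511), Spp1 (0.107) and Thbs1 (0.110) of the ligands, and 64 genes of the table did. Read depth is unknown, so a low CPM such as that of Lama2 or Spp1 carries a counting error that cannot be given here, and set, sex and litter limit what the 2 sets can tell apart.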
